A study of Homo sapiens with 10 samples.

Results

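Described here are 36 genes that load amino acids onto tRNA or export tRNA from the nucleus: 19 cytosolic aminoacyl tRNA synthetase genes, 16 mitochondrial ones and the tRNA exporter gene XPOT. They were chosen by name, with earlier results of these data known, and all 36 were found among the 20289 genes of the table. RNA was sequenced from CFPAC-1 and PANC-1, 2 established human lines of pancreatic ductal adenocarcinoma, each grown for 24 h with imidazole ketone erastin (IKE) or with 0.1% DMSO as the parallel control. IKE is a derivative of erastin and blocks system xc-, the carrier that imports cystine. The IKE dose was 10 µM for CFPAC-1 but 1 µM for PANC-1, so line and dose cannot be told apart. There were 2 CFPAC-1 DMSO, 2 CFPAC-1 IKE, 2 PANC-1 DMSO and 4 PANC-1 IKE libraries. Dead cells and debris were removed before collection, so every IKE library holds survivors. Whether a change lay within each cell or in the mix of cells that survived cannot be told apart. All levels are in FPKM, which scales fragment numbers by transcript length and library total, so levels can be set side by side between genes.

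Aminoacyl tRNA synthetases join each amino acid to its tRNA, and the ribosome can use an amino acid only in this form. The cytosol and the mitochondrion each have their own set, and nearly all mitochondrial enzymes come from separate nuclear genes whose symbols end in 2. GARS1 and KARS1 are known to make both forms from a single gene, and mitochondria form glutaminyl tRNA by another route, so GARS1, KARS1 and QARS1 have no mitochondrial partner gene here. FARSA and FARSB encode the subunits of a single enzyme, and EPRS1 encodes a fused enzyme for glutamate and proline. When an amino acid runs short, uncharged tRNA activates the kinase GCN2 (gene EIF2AK4), translation of the transcription factor ATF4 increases, and many cytosolic synthetase genes are known ATF4 targets.

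Summed FPKM ran from 405937 to 472665 per library, 11604 to 12248 genes reached 1 FPKM, without read depth being known. The share of summed FPKM from mRNAs of the mitochondrial genome was 2.65% to 5.27%, and PANC-1 IKE replicate 3 had the top value. The 6 epithelial markers fixed for the check (KRT7, KRT8, KRT18, KRT19, EPCAM and CDH1) were above 1 FPKM in every library of each group. EPCAM was at 157 to 158 FPKM in CFPAC-1 DMSO but only 8.58 to 10.4 FPKM in PANC-1 DMSO. KRT7, KRT19 and CDH1 were also lower in PANC-1 DMSO, whereas KRT18 was higher there and KRT8 overlapped between the lines. Summed markers of acinar and islet cells stayed at 0.12 FPKM or less in each library. Summed leukocyte markers (5 genes) were at 37.6 to 40.8 FPKM in CFPAC-1 DMSO and 31.6 to 36.2 FPKM in CFPAC-1 IKE. In PANC-1 they were at 0.41 to 1.31 FPKM. The 2 at 1 FPKM or more in CFPAC-1 were CD14 and LYZ, at 13.5 to 14.7 and 24.0 to 26.1 FPKM with DMSO. PTPRC and CD3E stayed at 0.04 FPKM or less in every library. Summed mesenchymal markers (VIM, CDH2 and ZEB1) were at 577 to 618 FPKM in CFPAC-1 DMSO and 1935 to 2107 FPKM in PANC-1 DMSO. This sum was mostly VIM, and ZEB1 was higher in PANC-1 DMSO too. CDH2 went the other way, at 40.0 to 41.5 FPKM in CFPAC-1 DMSO and 14.1 to 14.9 FPKM in PANC-1 DMSO. Summed fibroblast markers (4 genes) were at 4.67 to 6.30 FPKM and 22.2 to 22.8 FPKM there. Summed endothelial markers (3 genes) were at 18.5 to 20.8 FPKM in CFPAC-1 DMSO and 21.1 to 21.3 FPKM in CFPAC-1 IKE. Their part in the results was not tested.

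The first comparison asked how these genes differed in CFPAC-1 survivors of 10 µM IKE. Of the 19 cytosolic synthetase genes, 10 rose and 0 fell, and XPOT rose too, while 0 of the 16 mitochondrial genes were called in either direction. Among all 13077 genes tested, 0.864% rose and 0.459% fell, 1.32% in either direction. A gene is said to rise or fall where limma's adjusted p over all tested genes was below 0.05, and changes are log2 fold changes of FPKM + 1. The median change was 0.41 over the 19 cytosolic genes, 0.03 over the 16 mitochondrial genes and 0.00 over all genes tested. Summed over the 19 cytosolic genes, the level was 703 and 693 FPKM with DMSO and 958 and 970 FPKM with IKE. Over the 16 mitochondrial genes it was 177 and 184 FPKM with DMSO and 184 and 186 FPKM with IKE, so that the groups nearly touched.

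GARS1, the glycine enzyme (ENSG00000106105, GRCh38 chromosome 7, 30594681 to 30634033 in GENCODE 29), was at 24.7 and 25.4 FPKM in the CFPAC-1 DMSO libraries and 59.3 and 57.3 FPKM in the IKE libraries. Its groups lay far apart, and its change was the largest of the 36 in this line (log2 fold change 1.19, SE 0.07, adjusted p = 2.98e-06). AARS1, the alanine enzyme (ENSG00000090861, chromosome 16, 70252295 to 70289543), stood at 30.6 and 29.8 FPKM with DMSO and at 64.5 and 66.0 FPKM with IKE. Each IKE library held more than double the AARS1 level of each DMSO library (log2 fold change 1.09, SE 0.07, adjusted p = 8.49e-06). MARS1, the methionine enzyme, which also charges the initiator tRNA (ENSG00000166986, chromosome 12, 57475445 to 57517569), was at 33.7 and 29.7 FPKM with DMSO and at 58.7 and 74.0 FPKM with IKE. Its IKE libraries spread most widely, yet did not reach down to the DMSO libraries (log2 fold change 1.03, SE 0.11, adjusted p = 3.87e-04). MARS1 overlaps DDIT3 on the opposite strand, so reads counted without strand could be shared between them. YARS1, the tyrosine enzyme (ENSG00000134684, chromosome 1, 32775237 to 32818153), went from 27.7 and 27.8 FPKM to 53.3 and 56.4 FPKM (log2 fold change 0.96, SE 0.07, adjusted p = 4.03e-05).

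CARS1, the cysteine enzyme (ENSG00000110619, chromosome 11, 3000922 to 3057613), had the lowest level of the 19 cytosolic genes in CFPAC-1 DMSO, 9.22 and 9.38 FPKM. Its loss is known to protect cells from death by erastin. It stood at 18.2 and 18.4 FPKM with IKE, and was still the lowest of the 19 there (log2 fold change 0.91, SE 0.08, adjusted p = 1.92e-04). XPOT, which carries mature tRNA out of the nucleus (ENSG00000184575, chromosome 12, 64404350 to 64451127), was at 13.5 and 13.1 FPKM with DMSO and at 25.0 and 26.1 FPKM with IKE. Its groups were clearly separate (log2 fold change 0.89, SE 0.07, adjusted p = 4.34e-05). TARS1, the threonine enzyme (ENSG00000113407, chromosome 5, 33440696 to 33469539), was at 31.6 and 30.2 FPKM with DMSO and 53.7 and 51.5 FPKM with IKE (log2 fold change 0.75, adjusted p = 1.87e-04).

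WARS1, the tryptophan enzyme and also an interferon-induced gene (ENSG00000140105, chromosome 14, 100333788 to 100376805), was the most abundant of the 36 in CFPAC-1. It stood at 116 and 119 FPKM with DMSO and at 182 and 178 FPKM with IKE (log2 fold change 0.61, adjusted p = 3.97e-04). SARS1, the serine enzyme (ENSG00000031698, chromosome 1, 109213918 to 109238169), was at 47.3 and 46.9 FPKM with DMSO and at 70.4 and 67.9 FPKM with IKE (log2 fold change 0.54, adjusted p = 6.90e-04). For WARS1 and SARS1 the libraries within a group lay close together and the groups far apart. IARS1, the isoleucine enzyme (ENSG00000196305, chromosome 9, 92210207 to 92293756), went from 27.1 and 28.4 FPKM to 40.4 and 40.6 FPKM (log2 fold change 0.53, adjusted p = 0.00128). EPRS1 (ENSG00000136628, chromosome 1, 219968601 to 220046658) went from 37.0 and 34.7 FPKM to 47.2 and 48.9 FPKM (log2 fold change 0.41, SE 0.07, adjusted p = 0.00880). EPRS1 was no longer called when CFPAC-1 DMSO replicate 2 (adjusted p = 0.0912) or CFPAC-1 IKE replicate 2 (adjusted p = 0.0962) was left out, which leaves 1 library in an arm, and the other 10 risen members kept theirs with any library left out.

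The cytosolic genes that were not called in CFPAC-1 were those for asparagine (NARS1), leucine (LARS1), lysine (KARS1), glutamine (QARS1), arginine (RARS1), histidine (HARS1), valine (VARS1) and phenylalanine (FARSA and FARSB). NARS1 was at 28.2 and 25.9 FPKM with DMSO and 31.8 and 31.6 FPKM with IKE, groups that did not overlap (log2 fold change 0.22, adjusted p = 0.182). Over the 8 others, which were called in neither line, changes in CFPAC-1 ran from -0.23 (FARSB) to 0.25 (LARS1), and their 95% intervals together from -0.40 to 0.42. FARSB was at 23.8 and 23.4 FPKM with DMSO and 20.1 and 19.7 FPKM with IKE, so that its groups did not overlap, but it missed the threshold (adjusted p = 0.155). FARSA, the other subunit, was at 19.4 and 17.8 FPKM with DMSO and 18.5 and 20.1 FPKM with IKE, which overlap. QARS1 was at 47.7 and 49.0 FPKM with DMSO and 49.6 and 48.9 FPKM with IKE, and had the smallest change of the cytosolic genes in this line (0.03, 95% interval -0.18 to 0.24).

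In PANC-1 survivors of 1 µM IKE the same question gave 11 of 19 cytosolic genes risen and 0 fallen, XPOT risen, and 0 of 16 mitochondrial genes called, where 1.21% of all genes tested rose and 1.17% fell, 2.38% in either direction. The 10 genes that rose in CFPAC-1 were all among the 11, and the added gene was NARS1. The median change was 0.32 over the 19 cytosolic genes, -0.03 over the 16 mitochondrial genes and -0.01 over all genes. Summed cytosolic levels were 1211 and 1202 FPKM with DMSO and 1566 to 1638 FPKM over the 4 IKE libraries. Summed mitochondrial levels were 247 and 240.3 FPKM with DMSO and 232 to 245 FPKM with IKE, and these groups overlapped. Without PANC-1 DMSO replicate 1, which leaves 1 control, 6 cytosolic genes were called as risen.

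**Figure D1:**
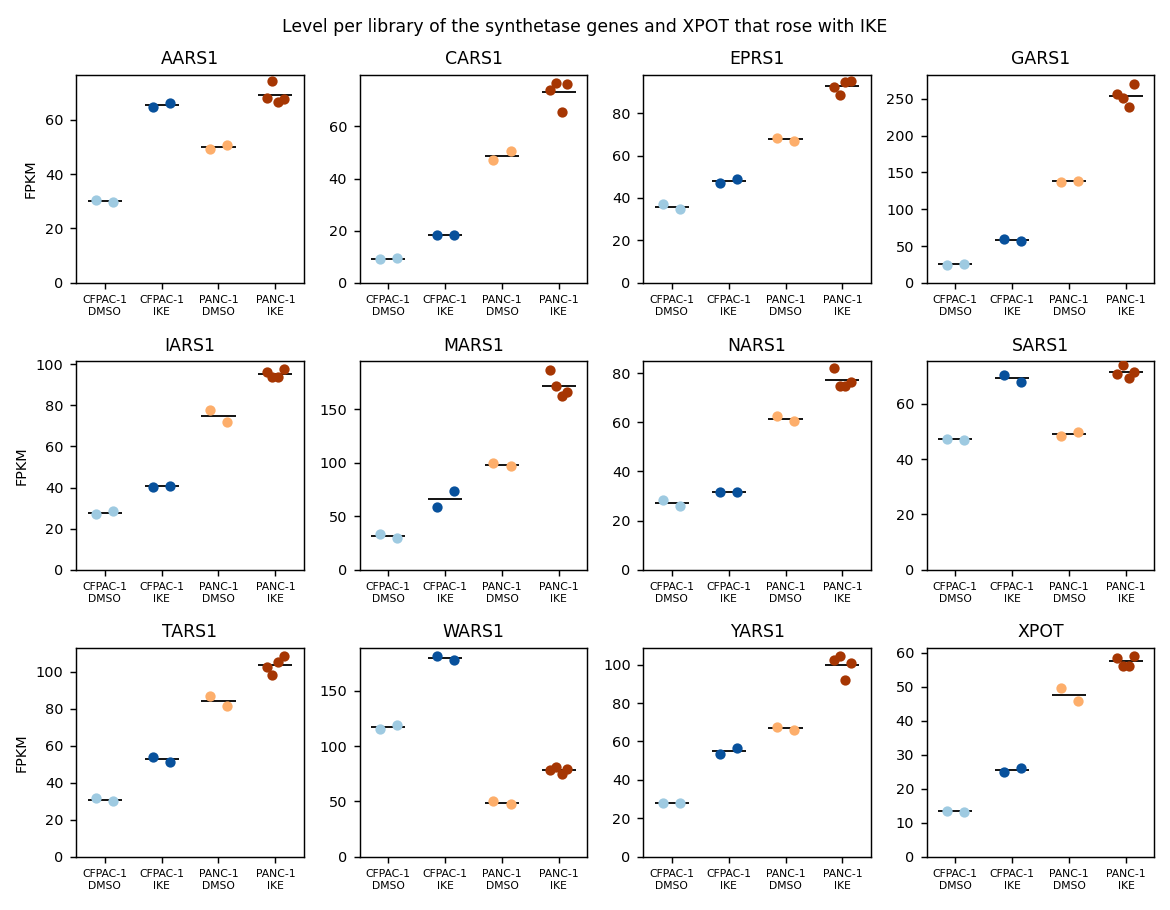
FPKM of the 11 synthetase genes and XPOT that rose with IKE in at least 1 line, with 1 point per library and a bar at each group's mean (n = 2, 2, 2 and 4 from left to right; linear axes from 0). In each panel the IKE libraries of a line lie above its DMSO libraries, and only WARS1 lies lower in PANC-1 than in CFPAC-1.

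GARS1 was the most abundant of the 36 in PANC-1, at 137 and 139 FPKM with DMSO and 257, 251, 239 and 271 FPKM with IKE. Its 4 IKE libraries were all far above the controls (log2 fold change 0.88, SE 0.06, adjusted p = 6.64e-05). MARS1 came next in level, with 99.6 and 96.6 FPKM with DMSO and 187, 172, 162 and 166 FPKM with IKE (log2 fold change 0.80, SE 0.09, adjusted p = 0.00177). WARS1 was at 50.6 and 47.3 FPKM with DMSO and 78.1, 81.0, 74.9 and 79.7 FPKM with IKE (log2 fold change 0.67, SE 0.06, adjusted p = 2.05e-04). These were the largest changes among the 36 genes in this line, and in each the IKE libraries stood clear of the controls.

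YARS1 was at 67.6 and 66.1 FPKM with DMSO and 103, 105, 91.8 and 101 FPKM with IKE (log2 fold change 0.57, adjusted p = 0.00126). CARS1 was at 47.1 and 50.5 FPKM with DMSO and 73.8, 76.6, 65.5 and 76.4 FPKM with IKE (log2 fold change 0.57, adjusted p = 0.00324). SARS1 was at 48.5 and 49.9 FPKM with DMSO and 70.8, 74.0, 69.3 and 71.4 FPKM with IKE (log2 fold change 0.53, adjusted p = 8.20e-04). In YARS1 and CARS1, PANC-1 IKE replicate 3 was the lowest of the 4 but still above the controls. AARS1 was at 49.1 and 50.7 FPKM with DMSO and 67.8, 74.4, 66.4 and 67.5 FPKM with IKE (log2 fold change 0.46, SE 0.06, adjusted p = 0.00372). EPRS1 was at 68.4 and 67.0 FPKM with DMSO and 92.2, 88.3, 94.4 and 95.1 FPKM with IKE (log2 fold change 0.45, adjusted p = 0.00311). AARS1 and CARS1 lost their calls without PANC-1 DMSO replicate 1 (adjusted p = 0.0696 and 0.0646).

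The smaller rises in PANC-1 were also the less firm ones. IARS1 was at 77.9 and 71.7 FPKM with DMSO and 96.1, 94.0, 93.6 and 97.9 FPKM with IKE (log2 fold change 0.35, adjusted p = 0.00953), and lost its call without DMSO replicate 1 (adjusted p = 0.0547) or 2 (adjusted p = 0.119). NARS1, the asparagine enzyme (ENSG00000134440, chromosome 18, 57600656 to 57622213), was at 62.5 and 60.4 FPKM with DMSO and 81.9, 74.9, 74.8 and 76.4 FPKM with IKE (log2 fold change 0.32, adjusted p = 0.0213). NARS1 missed the threshold when PANC-1 IKE replicate 4 or either PANC-1 DMSO library was left out (adjusted p from 0.0509 to 0.157). The IKE libraries of IARS1 and NARS1 nonetheless all lay above their controls. TARS1 was at 86.8 and 81.6 FPKM with DMSO and 103, 98.4, 106 and 109 FPKM with IKE (log2 fold change 0.30, adjusted p = 0.0252), and was not called when PANC-1 IKE replicate 1, PANC-1 IKE replicate 4 or either PANC-1 DMSO library was left out (adjusted p from 0.0515 to 0.188). XPOT was at 49.6 and 45.9 FPKM with DMSO and 58.6, 56.1, 56.3 and 59.1 FPKM with IKE (log2 fold change 0.27, SE 0.06, adjusted p = 0.0445). XPOT was close to the threshold and missed it in 9 of the 10 fits that each left out a library (adjusted p from 0.0568 to 0.263), all but the fit without PANC-1 IKE replicate 2. With no trend in the variance prior, NARS1 (adjusted p = 0.0537), TARS1 (0.0654) and XPOT (0.0816) were not called either.

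The 8 cytosolic genes called in neither line changed by -0.09 (FARSB) to 0.16 (LARS1) in PANC-1, with 95% intervals together from -0.22 to 0.31. LARS1 was at 51.8 and 57.7 FPKM with DMSO and 57.8, 59.7, 63.8 and 64.2 FPKM with IKE, so that its lowest IKE library lay just above its highest control (adjusted p = 0.242). KARS1 was at 62.8 and 64.0 FPKM with DMSO and 65.0 to 69.5 FPKM with IKE in PANC-1, and at 53.3 and 51.7 FPKM with DMSO and 48.2 and 46.5 FPKM with IKE in CFPAC-1. These groups did not overlap in either line, and the signs were opposite, but neither comparison passed (adjusted p = 0.436 and 0.337), nor did their difference (0.23, adjusted p = 0.287). For this gene and others, groups this small can easily lie apart without a change. How often they did so over all genes was not computed.

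**Figure D2:**
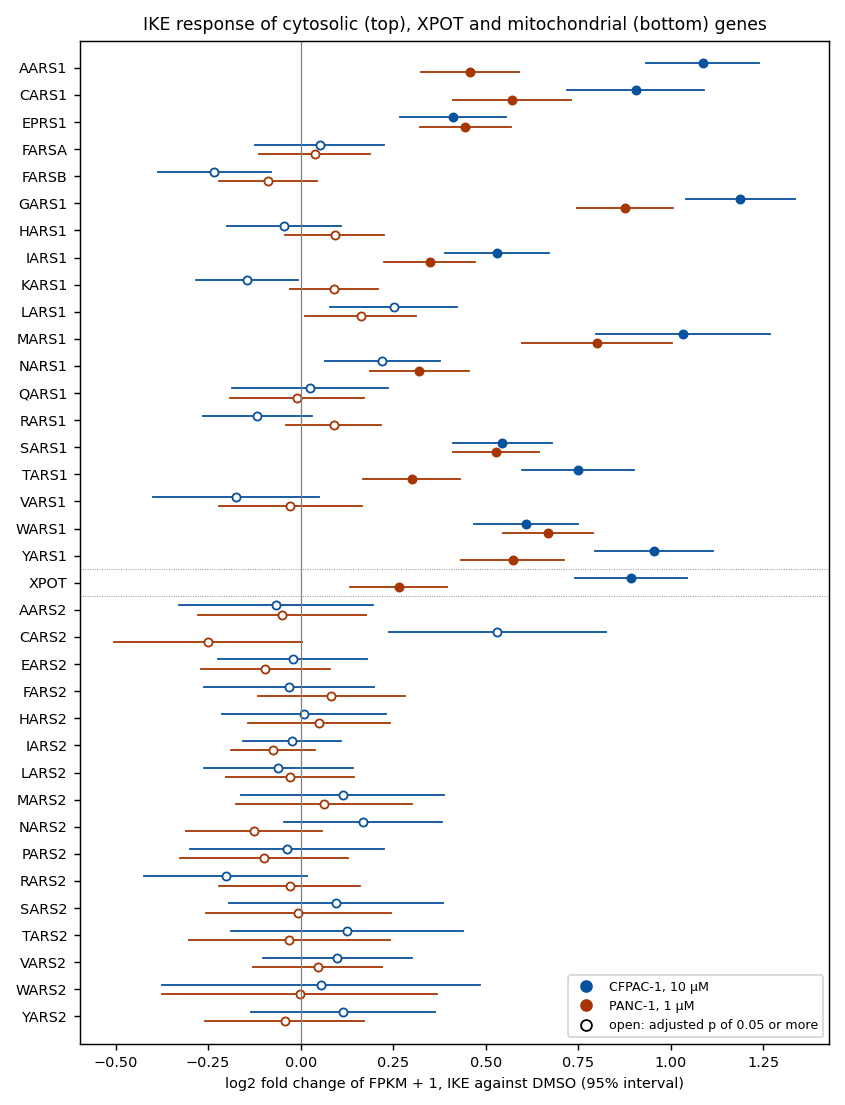
Log2 fold change of FPKM + 1 with IKE (x axis, 95% interval as a bar) for each of the 36 genes, in CFPAC-1 (blue) and PANC-1 (brown), filled where the adjusted p was below 0.05. Filled points are found among cytosolic genes and XPOT, from 0.27 to 1.19, and none of the 16 mitochondrial genes at the bottom is filled.

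No mitochondrial synthetase gene passed the test in either line, and their 95% intervals together ran from -0.42 to 0.82 in CFPAC-1 and from -0.50 to 0.37 in PANC-1. At an unadjusted p below 0.05, limma gave 1 higher (CARS2) and 0 lower of 16 in CFPAC-1, and 0 in either direction in PANC-1. Among all genes tested the unadjusted shares were 6.5% higher and 7.1% lower in CFPAC-1, and 8.37% higher and 9.25% lower in PANC-1, so 1 of 16 is near the background. CARS2, the mitochondrial cysteine enzyme (ENSG00000134905, chromosome 13, 110641412 to 110713603), was at 4.54 and 5.14 FPKM with DMSO and 8.26 and 6.67 FPKM with IKE in CFPAC-1 (log2 fold change 0.53, 95% interval 0.24 to 0.82, adjusted p = 0.0848). It was called there without PANC-1 IKE replicate 2 (adjusted p = 0.0496), a library of the other line that enters through the shared spread. In PANC-1, CARS2 was at 12.8 and 11.3 FPKM with DMSO and 9.53, 11.6, 9.69 and 9.05 FPKM with IKE, so that the groups overlapped (log2 fold change -0.25, adjusted p = 0.292). IARS2, the most abundant of the 16, was at 33.6 and 32.9 FPKM with DMSO and 32.7 in each IKE library of CFPAC-1, a difference of -0.02 (95% interval -0.16 to 0.11). Changes of the other 14 (AARS2, EARS2, FARS2, HARS2, LARS2, MARS2, NARS2, PARS2, RARS2, SARS2, TARS2, VARS2, WARS2 and YARS2) lay between RARS2 at -0.20 and NARS2 at 0.17 in CFPAC-1, and between NARS2 at -0.13 and FARS2 at 0.08 in PANC-1. WARS2 had the widest intervals among those 14 (-0.37 to 0.48 in CFPAC-1), so a change of moderate size in it was not detectable with these libraries. Of the 16 mitochondrial genes, 7 overlap another protein-coding gene in GENCODE 29, which makes their values uncertain: HARS2, SARS2 and VARS2 on the same strand, and AARS2, CARS2 (with ING1), EARS2 and YARS2 on the opposite strand alone. MARS2, TARS2, WARS2 and YARS2 overlap non-coding genes or pseudogenes on the same strand. Among the 19 cytosolic genes, HARS1, KARS1, MARS1, WARS1 and YARS1 overlap protein-coding genes, all on the opposite strand. CARS1, IARS1, MARS1, QARS1 and VARS1 overlap non-coding genes on the same strand.

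Set side by side by amino acid, 16 cytosolic genes had a mitochondrial partner, in 17 pairs. The 10 genes risen in CFPAC-1 included 9 with a partner, and GARS1, which serves the 2 compartments from a single gene. None of the partners was called. By signed value, the change of the cytosolic gene was the larger in 14 of 17 pairs in each line. RARS1 at -0.12 thus counted as larger than RARS2 at -0.20 in CFPAC-1. The pairs are not all separate, as EPRS1 is paired with both EARS2 and PARS2, and FARS2 with both FARSA and FARSB. For alanine in CFPAC-1, the change was 1.09 for AARS1 and -0.07 for AARS2. For tyrosine in PANC-1, the change was 0.57 for YARS1 and -0.04 for YARS2. The difference between cytosolic and mitochondrial genes was not tested.

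Cytosolic synthetases also differ in fold and in assembly. Of the 7 whose enzymes sit in the large multi-synthetase complex (EPRS1, IARS1, KARS1, LARS1, MARS1, QARS1 and RARS1), EPRS1, IARS1 and MARS1 rose, 3 of 7 in each line, and the median change of the 7 was 0.25 in CFPAC-1 and 0.16 in PANC-1. Of the 12 outside it, 7 rose in CFPAC-1 and 8 in PANC-1, with medians of 0.58 and 0.39. By fold of the catalytic domain, 5 of 9 class I genes rose in each line, and of 9 class II genes 4 rose in CFPAC-1 and 5 in PANC-1, while EPRS1 belongs to both classes. The risen genes were thus found in each class, and inside and outside the complex.

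Promoter sequence was read for members that moved together. The table of RefSeq promoter windows (GRCh38.p14, 250 bases before to 50 after a start) held 31 of the 36 genes in 40 windows, and LARS1, VARS1, YARS1, AARS2 and VARS2 were not in it. The C/EBP-ATF response element, the known binding site of ATF4 with its partners, was searched on each strand as TGATGNAAN, where N is any base. It was present in 3.61% of all 35116 windows. Shares over all windows are per window, and none per gene was computed, so the gene counts that follow are in another unit. Counting a gene once if any of its windows held the motif, it was found for 7 of 10 cytosolic genes risen in at least 1 line (AARS1, CARS1, GARS1, IARS1, MARS1, NARS1 and TARS1). It was found for 0 of the 6 cytosolic genes called in neither line that were in the table, for 1 of 14 mitochondrial genes (YARS2), and not for XPOT. The risen genes EPRS1, SARS1 and WARS1 had no match in their windows. The E-box CACGTG and the cAMP response element TGACGTCA were in 7.26% and 1.85% of all windows. CACGTG was found for 1 of the 10 risen genes (IARS1), 0 of the 6 others and 3 of 14 mitochondrial genes (CARS2, EARS2 and MARS2), and TGACGTCA for none of the members. The motifs were chosen with the results known, and a match is a description of letters, not a binding site.

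The 30-base stretches around the 8 matches are shown so that the letters left free by the motif can be compared between genes. Each runs 5′ to 3′ on the gene's strand, with the match in capitals; where the motif lies on the other strand, the capitals read as its reverse complement.
AARS1 (chr16:70289675-70289704, minus strand): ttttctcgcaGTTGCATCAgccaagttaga
CARS1 (chr11:3057407-3057436, minus strand): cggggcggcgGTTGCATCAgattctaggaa
GARS1 (chr7:30594834-30594863, plus strand): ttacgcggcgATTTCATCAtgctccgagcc
IARS1 (chr9:92293692-92293721, minus strand): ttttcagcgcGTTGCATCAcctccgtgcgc
MARS1 (chr12:57488053-57488082, plus strand): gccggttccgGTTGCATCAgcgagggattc
NARS1 (chr18:57621803-57621832, minus strand): ctacgctctcTGATGCAACgccggaatcgc
TARS1 (chr5:33440956-33440985, plus strand): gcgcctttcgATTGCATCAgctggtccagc
YARS2 (chr12:32756075-32756104, minus strand): tccacactgcTGATGGAAAaattaagttta

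AARS1, CARS1, IARS1 and MARS1 held the identical run GTTGCATCA, and NARS1 held its reverse complement. Counted from the RefSeq start of the window, the match began 3 to 34 bases before it in CARS1, GARS1, IARS1 and MARS1. In NARS1 and TARS1 the match began at base 15 and base 2 after that start. AARS1 and YARS2 had the match farther upstream, at -188 and -197. The GENCODE 29 bounds given above start elsewhere. The matches of CARS1, GARS1, IARS1, MARS1, NARS1 and TARS1 lie inside those bounds, that of MARS1 (57488053 to 57488082 within 57475445 to 57517569) far inside. Around the AARS1 match, 100 bases that lie wholly before the start (chr16:70289640-70289739, minus strand) are shown for context, with the same capitals.
AARS1 upstream: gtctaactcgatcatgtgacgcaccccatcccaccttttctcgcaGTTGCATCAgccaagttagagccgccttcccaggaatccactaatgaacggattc

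Whether the responses differed between the lines was tested as the PANC-1 change minus the CFPAC-1 change. Of the 11 members that rose in each line, 9 had the larger change in CFPAC-1, and EPRS1 and WARS1 did not. The difference itself passed for AARS1 and XPOT alone, 2 of 36 members, where 0.336% of all genes tested passed. For AARS1 it was -0.63 (SE 0.09, adjusted p = 0.0176), and for XPOT -0.63 (SE 0.09, adjusted p = 0.0176). AARS1 began lower in CFPAC-1, and its IKE libraries reached 64.5 and 66.0 FPKM there against 66.4 to 74.4 FPKM in PANC-1. The AARS1 call was lost without any single CFPAC-1 library or either PANC-1 DMSO library (adjusted p from 0.0612 to 0.103), and the XPOT call without any single CFPAC-1 library or PANC-1 DMSO replicate 1 (adjusted p from 0.0585 to 0.102). TARS1 (-0.45, adjusted p = 0.0801), YARS1 (-0.38, adjusted p = 0.144), CARS1 (-0.33, adjusted p = 0.257) and GARS1 (-0.31, adjusted p = 0.198) missed the threshold. For SARS1 the difference was -0.02 (95% interval -0.19 to 0.16) and for WARS1 0.06 (95% interval -0.12 to 0.25), and neither passed.

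**Figure D3:**
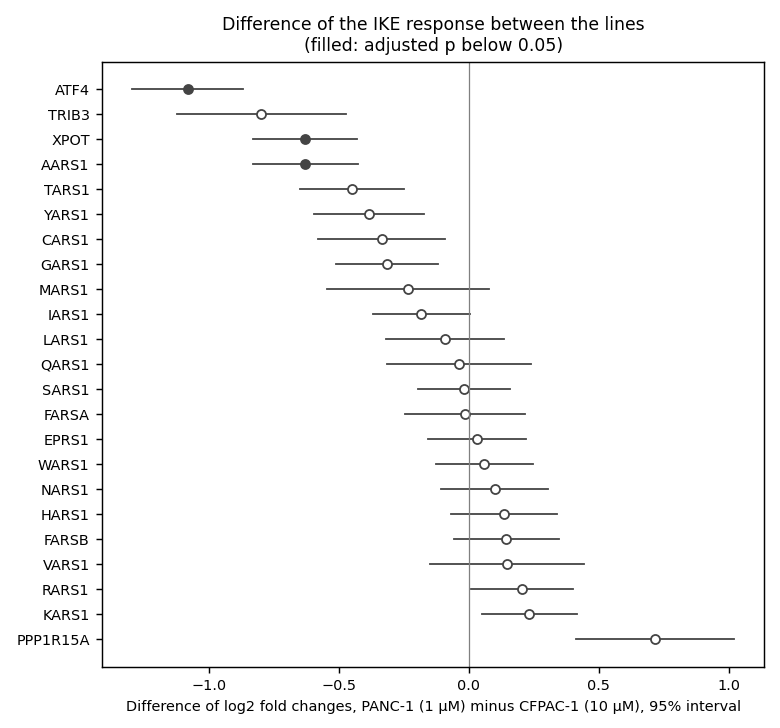
Difference of the log2 fold changes with IKE, PANC-1 minus CFPAC-1 (x axis, bar as 95% interval), for the cytosolic genes, XPOT, ATF4, TRIB3 and PPP1R15A, filled where the adjusted p was below 0.05. ATF4 at -1.08, XPOT at -0.63 and AARS1 at -0.63 are filled, and the other genes are open.

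Other genes of tRNA charging and amino acid sensing gave a reference. Of 43 such genes in 8 lists, 2 rose and 0 fell in each line, all in the list for sensing of amino acid shortage. ATF4 was at 91.4 and 94.0 FPKM with DMSO and 232 and 228 FPKM with IKE in CFPAC-1 (log2 fold change 1.30, adjusted p = 2.98e-06). In PANC-1 it was at 99.7 and 98.8 FPKM with DMSO and 118, 118, 105 and 123 FPKM with IKE, which did not overlap but missed the threshold (log2 fold change 0.22, adjusted p = 0.0951; 0.0293 without IKE replicate 3). The ATF4 difference between the lines passed (-1.08, SE 0.10, adjusted p = 0.00146). TRIB3, a pseudokinase gene induced by ATF4, rose in CFPAC-1 from 23.4 and 23.8 FPKM to 67.7 and 67.9 FPKM (log2 fold change 1.48, adjusted p = 3.91e-05). In PANC-1 it rose from 12.0 and 12.4 FPKM to 21.5, 23.6, 17.8 and 18.8 FPKM (log2 fold change 0.69, adjusted p = 0.00528; 0.0778 without DMSO replicate 1). The TRIB3 difference between the lines was -0.80 (adjusted p = 0.0533), and it passed without PANC-1 IKE replicate 2 (0.0146), with genes of at least 5 FPKM in 2 libraries (0.0377) and with median-ratio scaling (0.0485). PPP1R15A, which brings a phosphatase to eIF2α, rose in PANC-1 from 6.48 and 7.73 FPKM to 14.0, 12.9, 12.0 and 13.8 FPKM (log2 fold change 0.81, adjusted p = 0.00146) and was at 13.5 and 13.8 FPKM with DMSO and 14.0 and 15.2 FPKM with IKE in CFPAC-1 (0.09, adjusted p = 0.786). The PPP1R15A difference between the lines had the opposite sign to that of ATF4 and TRIB3 and missed the threshold (0.72, adjusted p = 0.0629). DDIT3, which shares its locus with MARS1, was at 18.9 and 18.5 FPKM with DMSO and 26.4 and 21.4 FPKM with IKE in CFPAC-1 (adjusted p = 0.218). In PANC-1 it was at 17.9 and 20.6 FPKM with DMSO and 26.3, 26.4, 22.8 and 27.1 FPKM with IKE (adjusted p = 0.0617; 0.0376 without IKE replicate 3). Without PANC-1 IKE replicate 3, 4 of the 43 genes were called in PANC-1, and 1 without DMSO replicate 1.

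The other 7 lists held the aspartyl enzymes, the scaffold of the multi-synthetase complex, the mitochondrial route to glutaminyl and formylmethionyl tRNA, selenocysteinyl tRNA, tRNA ends and editing, other nuclear exporters, and elongation factors. Limma called 0 of their 34 genes in either line. At an unadjusted p below 0.05, 1 was higher and 3 were lower in CFPAC-1, and 3 were higher and 0 lower in PANC-1. At that unadjusted level, 6.5% of all genes tested were higher and 7.1% lower in CFPAC-1, and 8.37% higher and 9.25% lower in PANC-1. Their median change was 0.01 in CFPAC-1 and 0.06 in PANC-1.

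Without drug the lines differed widely in these genes, as they did in most others: PANC-1 DMSO was higher than CFPAC-1 DMSO in 43.4% of all genes tested and lower in 35.2%, 78.7% in either direction. Of the 19 cytosolic genes 16 were higher in PANC-1 and 1 was lower, XPOT was higher, and of the 16 mitochondrial genes 9 were higher and 5 lower. The median difference was 0.90 over the cytosolic genes, 0.45 over the mitochondrial ones and 0.12 over all genes. Median-ratio scaling of the libraries moved the median over all genes to -0.01. Under it KARS1 was no longer called (0.27 became 0.14, adjusted p = 0.0556), TARS2 was called as lower (-0.28 became -0.40, adjusted p = 0.0213), and the uncalled QARS1, SARS1 and LARS2 changed sign.

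GARS1 had the widest gap, 24.7 and 25.4 FPKM in CFPAC-1 against 137 and 139 FPKM in PANC-1 (difference 2.42, SE 0.07, adjusted p = 3.66e-11). CARS1 followed, with 9.22 and 9.38 FPKM against 47.1 and 50.5 FPKM (2.27, adjusted p = 3.74e-10). Among mitochondrial genes SARS2 differed most, with 4.34 and 3.60 FPKM against 18.2 and 16.8 FPKM (1.90, adjusted p = 9.23e-08). XPOT was at 13.5 and 13.1 FPKM against 49.6 and 45.9 FPKM (1.77, adjusted p = 5.74e-10). WARS1 alone of the cytosolic genes was lower in PANC-1, at 50.6 and 47.3 FPKM against 116 and 119 FPKM (-1.25, adjusted p = 6.18e-09). Its mitochondrial partner WARS2 was lower too, at 4.42 and 3.32 FPKM against 7.56 and 9.25 FPKM (-0.95, adjusted p = 8.22e-04), as were AARS2, FARS2, PARS2 and VARS2. In order of mean level, the highest cytosolic genes in CFPAC-1 DMSO were WARS1 at 118 ± 2.36 FPKM and KARS1 at 52.5 ± 1.16 FPKM (SD, n = 2). In PANC-1 DMSO they were GARS1 at 138 ± 1.34 FPKM and MARS1 at 98.1 ± 2.08 FPKM (SD, n = 2). WARS1 and CARS1, at 48.9 ± 2.34 and 48.8 ± 2.45 FPKM there (SD, n = 2), did not differ beyond their spread.

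**Figure D4:**
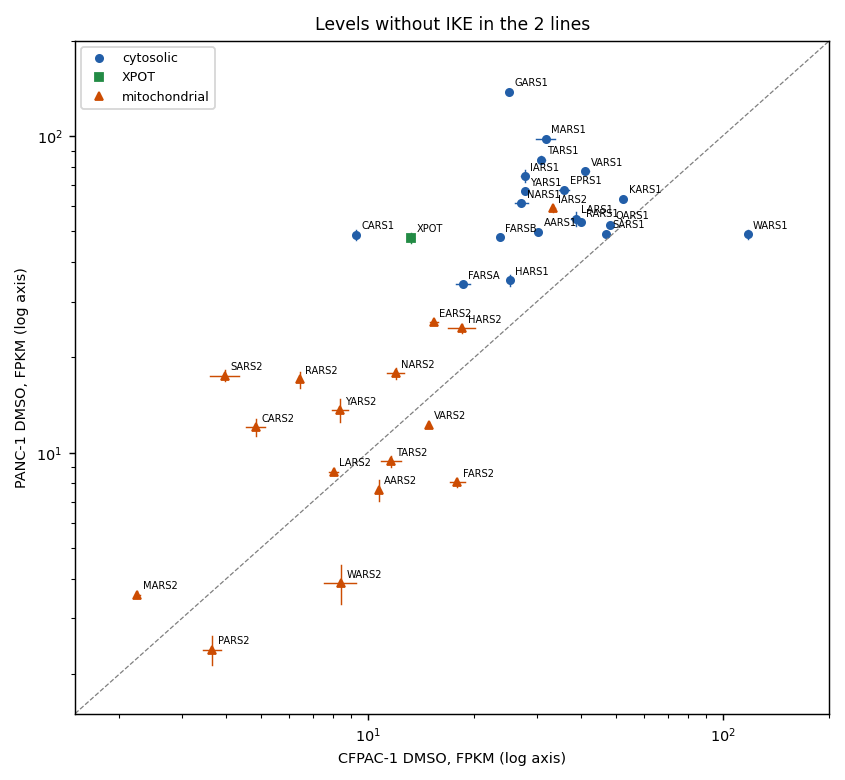
Mean FPKM without IKE in CFPAC-1 (x) and PANC-1 (y), on log axes, for the 19 cytosolic genes, XPOT and the 16 mitochondrial genes, with bars from the lower to the higher of the 2 libraries and a dashed line of equal level. Most cytosolic genes lie above the line, with GARS1 and CARS1 farthest from it, SARS2 is the farthest mitochondrial gene, and WARS1 lies below the line.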

How the data were processed

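Gene levels were taken as FPKM, to 2 decimals, from the authors' table, with 1 column per library. Its 9 empty columns were not used. The submitters' processing notes name GRCh38, StringTie 1.3.4, HISAT2 2.1.0, Bowtie2 2.2.8, fastp 0.18.0 and DESeq2. Tool roles, annotation and strand use in counting: not given in the sources used here. Counts and depth are unknown, so no counting interval is given. Genes with at least 1 FPKM in 2 libraries (13077, with all 36 members among them) were tested with limma 3.58.1 in R 4.3.3 on log2(FPKM + 1). The fit had a mean per group over all 10 libraries and a trend in the variance prior. This scale understates changes of low genes. Tests were two-sided, with Benjamini-Hochberg adjustment over all tested genes and a threshold of 0.05. Replicates are called bioreplicates in the labels, with no statement on separate cultures, so p-values measure the spread between these libraries. On simulated data with 200 changed genes of 13077, the fit recovered 63.8% (CFPAC-1) and 74.8% (PANC-1) of those changed 1.5-fold, and 94.2% and 97.8% of those changed 2-fold. Of its calls on simulated data, 5.32% and 5.66% were false. The simulated noise was normal and independent between genes, with no effect shared within a library, so these shares may not hold for the real libraries. All members are named. Values in every library are given for those called with IKE or in the difference, and pathway genes are named where called. A few further uncalled genes were shown after their values were seen. Members, lists and motifs were chosen with earlier results of these data known. The alternatives were a pseudocount of 0.1, no filter, at least 5 FPKM, median-ratio scaling, no variance trend, a fit with each library left out in turn, PANC-1 IKE replicates 1 and 2 without the others, and a replicate block.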

Additional observations from a re-analysis of the deposited data

Results flagged for a closer look

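The IKE response differed between the lines by the test of the difference, PANC-1 minus CFPAC-1, in 3 of the genes examined. The values were -0.63 for AARS1, -0.63 for XPOT and -1.08 for ATF4, on the log2 scale, with limma adjusted p-values of 0.0176, 0.0176 and 0.00146. Line and dose cannot be told apart in these differences. Among 37 genes checked in the 4 PANC-1 IKE libraries, the 36 members and ATF4, no library stood apart by Dixon's test at its 95% level.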

How the results depend on the processing

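The results followed for single genes were the calls of members and pathway genes with IKE and in the difference. For the lines without drug, only GARS1, CARS1, XPOT, SARS2 and WARS1 were followed. None of these changed sign under any alternative. KARS1, whose call between the lines was lost with median-ratio scaling, was not among them. A pseudocount of 0.1, no filter, at least 5 FPKM and median-ratio scaling each kept the calls of all 35 results followed for single genes. With no variance trend 3 lost their call, with PANC-1 IKE replicates 1 and 2 alone 5, and with a replicate block 6. Whether same-numbered libraries were handled together is not given in the labels. Across genes, deviations of replicates 1 and 2 from their group means correlated between DMSO and IKE at 0.00 in CFPAC-1 and 0.05 in PANC-1. A single value per line, without PANC-1 IKE replicates 3 and 4, cannot decide whether they were paired. With the replicate block 149 genes were called in PANC-1, 15 in the difference between lines, and 0 members in that difference. With PANC-1 IKE replicates 1 and 2 alone these were 172, 17 and 0. With single libraries left out, genes called over all those tested ranged from 80 (without CFPAC-1 DMSO replicate 2) to 256 in CFPAC-1, from 42 (without PANC-1 DMSO replicate 1) to 504 (without PANC-1 IKE replicate 2) in PANC-1, and from 13 (without CFPAC-1 DMSO replicate 2) to 62 in the difference. Cytosolic genes risen in PANC-1 ranged from 6 to 11 and in CFPAC-1 from 9 to 10. Mitochondrial genes risen in CFPAC-1 ranged from 0 to 1, called pathway genes in PANC-1 from 1 to 4, and members called in the difference from 0 to 2. Fits without a CFPAC-1 library or a PANC-1 DMSO library leave 1 in an arm, assumed to vary like the others. The cause of these shifts was not tested.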
